A study of Mus musculus with 36 samples.

Results

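The genes described here are those whose transcript levels in epididymal white fat, the fat pad that lies along the epididymis, moved the same way from a starting group in 2 later groups of mice that differed in ration. A gene was taken if HF-AL minus t0 and HF-DR minus t0 had the same sign and each was at least 0.3 on the log2 scale, and 309 of 16497 measured genes (1.87%) met this. Of these, 222 (1.35%) were above t0 in both later groups and 87 (0.527%) were below it in both. All animals were adult male C57BL/6J mice, an inbred strain, and all had first eaten a purified diet with 30% of its energy from fat, freely, for 3 weeks. The 12 mice of t0 were killed after those 3 weeks. The 12 HF-AL mice continued to eat the diet freely for 12 more weeks. The 12 HF-DR mice received it restricted (70% of energy in the labels' words) for the same 12 weeks, with a vitamin and mineral premix added. Both later groups were thus also 12 weeks older than t0, and time on the diet and age cannot be told apart. Each mouse contributed 1 array, on which its Cy5-labelled RNA was hybridised against a Cy3-labelled pool of all samples, and each value below is a log2 ratio of 1 mouse to that pool.

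White adipocytes store fatty acids as triglyceride in a lipid droplet and release them by lipolysis when catecholamines act on beta-adrenergic receptors. Insulin restrains lipolysis and drives lipid synthesis, partly through the transcription factors SREBP and ChREBP. The depot also holds fibroblasts, macrophages, lymphocytes, vessels with blood, and a mesothelial cover, and in male mice it borders on the epididymis, the testis and the seminal vesicles. In such bulk tissue fewer cells of a type and less RNA per cell cannot be told apart.

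Because the members were chosen by their differences from t0, these differences are given as descriptions with a standard error and without a test. Both rest on the same 12 t0 arrays, so a chance deviation of the t0 mean would move both alike. The difference HF-DR minus HF-AL was tested for every measured gene with limma and Benjamini-Hochberg adjustment, two-sided, and the choice of members limits its values too.

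Most members sat closer to t0 in HF-AL than in HF-DR. Among the 222 genes above t0 the median difference was 0.47 in HF-AL and 0.73 in HF-DR. Among the 87 genes below t0 it was -0.36 in HF-AL and -1.03 in HF-DR. Over all 16497 genes the medians were 0.006 and -0.014. HF-AL gave the smaller of the 2 differences for 249 of the 309 members. A difference of at least 0.3 from t0 was measured for 744 genes (4.51%) in HF-AL and for 6862 genes (41.6%) in HF-DR, so it was mainly the HF-AL difference that limited the list. The smaller difference was under 0.4 for 139 members and at least 0.5 for 90, and only Igh, Sox9 and Grb7 differed by at least 1 in both groups. The mean of both later groups differed from t0 at an adjusted p under 0.05 for 6857 genes (41.6%), and 200 members were among them. Nothing is read from that count, since the rule used this contrast.

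**Figure D1:**
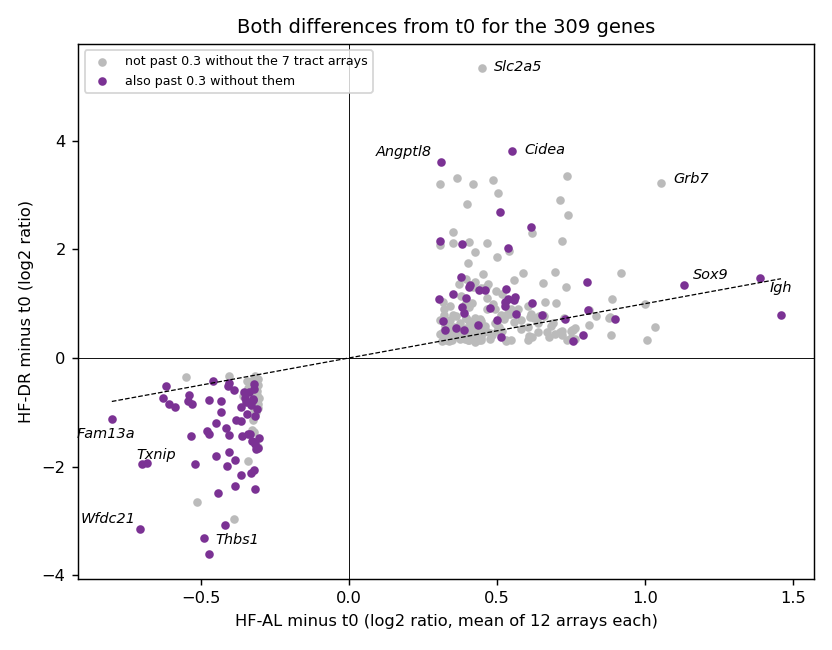
HF-AL minus t0 (horizontal) against HF-DR minus t0 (vertical) for the 309 member genes, both as differences of mean log2 ratios over 12 arrays per group. The dashed line marks equal differences, and purple points are the 43 higher and 61 lower genes that also pass 0.3 when 7 arrays with transcripts of neighbouring organs are left out.

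Several arrays stood apart and carried most of the genes above t0. A set of 12 epithelial genes, chosen after the values were seen and all members themselves (Cldn3, Cldn7, Krt8, Krt18, Krt19, Spint1, Spint2, St14, Perp, Dsp, Prom1 and Cd24a), had a median log2 ratio of 0.77, 1.84 and 1.81 on HF-AL 5, 7 and 9 and of 1.04, 3.21 and 2.96 on HF-DR 7, 8 and 9. On the other 30 arrays it lay between -1.24 and -0.21. The 8 measured testis and sperm markers had medians of 0.71, 1.90 and 1.20 on those 3 HF-AL arrays and of at most -0.13 on all others. A group of 4 seminal vesicle genes reached 6.02 and 5.32 on HF-DR 8 and 9. It was also raised on HF-DR 7 (-0.01) and t0 6 (-2.88) over the remaining arrays, none of which exceeded -3.91. The 12 measured epididymis and seminal vesicle markers had medians of -3.95, -3.82 and -4.22 on HF-AL 5, 7 and 9. These lay within the range of the other HF-AL arrays (-4.26 to -3.19). The arrays thus did not share 1 pattern, and t0 6 was raised in the seminal vesicle genes but not in the epithelial set. All are called arrays with tract transcripts below. Of the 21 listed adipocyte markers 20 passed the filter on signal. Their median was -1.12 and -1.07 on HF-DR 8 and 9, the arrays with the most tract transcripts, and between -0.31 and 0.32 on all others.

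Without these 7 arrays (HF-AL 5, 7 and 9, HF-DR 7, 8 and 9 and t0 6), 43 of the 222 higher genes and 61 of the 87 lower genes still passed 0.3 in both groups. Of the 179 higher genes that no longer passed, 103 had a correlation of at least 0.7 with the epithelial set within groups over the 36 arrays, a description that rests on the few arrays named. Such a correlation was found for 1309 of all genes, for 108 higher members and for 0 lower members. The genes of the set itself were not taken out of these counts. The set was high on most of the arrays left out, so nothing is read from the overlap of loss and correlation. Leaving out HF-AL 9 alone took the number of higher genes from 222 to 144. With group medians in place of means, 51 of the higher and 61 of the lower genes passed. The share of probes above background ran from 44.6% on HF-DR 5 to 86.3% on t0 2. Among the members, 222 had a Cy5 signal well above background on all 12 arrays of every group, none was saturated, and 75 higher genes missed it on at least 1 array of some group.

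**Figure D2:**
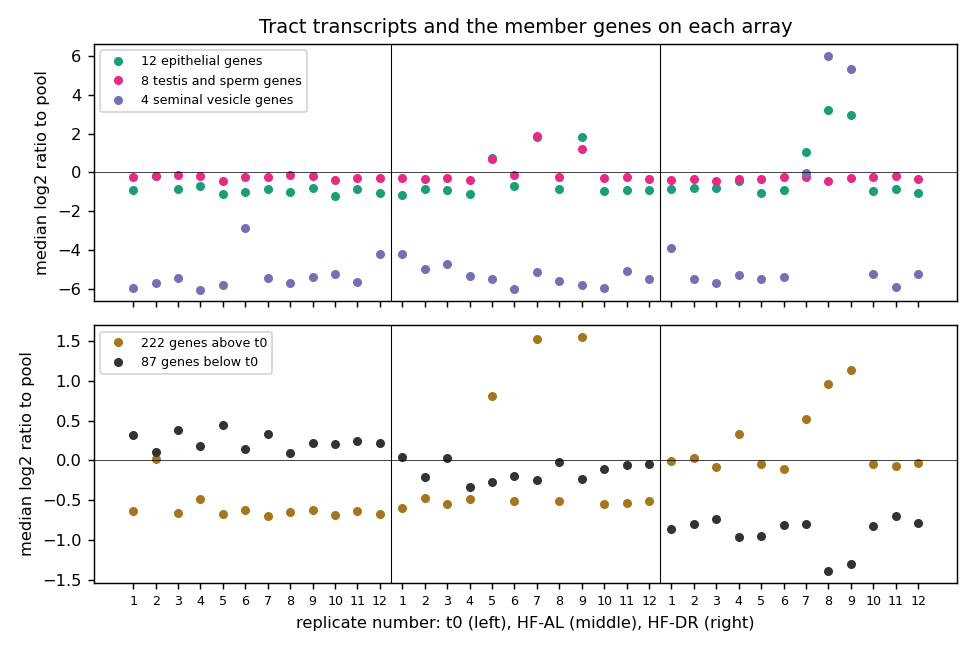
Median log2 ratio to the pool on each of the 36 arrays, for epithelial, testis and seminal vesicle genes (top) and for the 222 higher and 87 lower member genes (bottom). The higher genes reach 1.53 and 1.55 on HF-AL 7 and 9, the arrays with epithelial and testis transcripts, while the lower genes lie below all t0 arrays on every HF-DR array.

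By the smaller of its differences from t0, Igh was the highest of all members. This probe for the immunoglobulin heavy chain locus (chr12:113706582-113706641, mm8) had a log2 ratio of -2.40, -1.69 and 0.14 (lowest, median and highest) in t0, of -1.84, -0.12 and 1.05 in HF-AL and of -1.42, -0.01 and 1.40 in HF-DR. The groups overlapped, yet 23 of the 24 later arrays were above the t0 median. Mean levels were 2.62-fold and 2.77-fold those of t0 (log2 difference 1.39 and 1.47, SE 0.37). A probe for the gamma heavy chain, Ighg, was 1.46 above t0 in HF-AL and 0.78 in HF-DR (SE 0.34), with all 24 later arrays above the t0 median. Another Ighg probe read only 0.11 and 0.23. Iglv1, a lambda light chain variable gene, was 0.90 and 0.72 above t0 (SE 0.40). All 3 kept a difference of at least 0.3 without the 7 arrays, at 1.14 and 1.70 for Igh, 1.15 and 0.73 for Ighg and 0.69 and 0.84 for Iglv1. Probes assigned to Igh did not all move: of the 4 others, 2 were 0.87 to 1.12 above t0 in HF-AL and 1.05 to 1.22 in HF-DR, and 2 lay within 0.17 of it in both. Near-identical immunoglobulin sequences may share signal. Igh and Iglv1 were the only members among the 18 measured markers of B and plasma cells, whose median difference was 0.05 in HF-AL and 0.10 in HF-DR.

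Transcripts of red blood cells formed the list with the highest share of members, 6 of 8 measured genes. Hbb-bt, an adult beta-globin (chr7:103687307-103687366), had ratios of -2.21, -1.21 and -0.86 in t0, -1.67, -0.37 and 0.40 in HF-AL and -1.12, 0.00 and 1.54 in HF-DR. Its mean was 1.75-fold that of t0 in HF-AL and 2.65-fold in HF-DR (0.81 and 1.40, SE 0.26). The alpha-globins Hba-a1 and Hba-a2, near-identical copies, were 0.56 and 0.53 above t0 in HF-AL and 1.08 and 1.03 in HF-DR. Alas2, the erythroid enzyme that starts haem synthesis, was 0.53 and 1.27 above t0. Bpgm, which makes the bisphosphoglycerate that binds haemoglobin, was 0.38 and 1.50 above t0, with an array at 4.30 in HF-DR, and 0.37 and 0.68 without the 7 arrays. Slc4a1, the anion exchanger of the red cell membrane, was 0.31 and 1.09 above t0. The median of the list on single arrays ran from -1.44 to -0.58 in t0, from -0.94 to 0.25 in HF-AL and from -0.49 to 1.12 in HF-DR, so HF-AL overlapped with t0 while all HF-DR arrays lay above it. All 6 genes kept their place without the 7 arrays. The share of blood in the samples was not measured.

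Of the measured genes of fatty acid and triglyceride synthesis 2 of 28 were members, of cholesterol synthesis and uptake 2 of 23 and of fatty acid oxidation 0 of 24. The members among them were above t0. Pnpla3, a lipid droplet hydrolase that is induced by feeding, had close means in both later groups. Its ratios were -1.15, -0.02 and 0.81 in t0, 0.23, 0.41 and 1.19 in HF-AL and -0.42, 0.82 and 1.02 in HF-DR. The difference from t0 was 0.73 in HF-AL and 0.72 in HF-DR (SE 0.20), and HF-DR minus HF-AL was -0.01 with a 95% interval from -0.41 to 0.40. Cidea, a protein that helps lipid droplets grow, was 0.55 above t0 in HF-AL and 3.81 in HF-DR (SE 0.18), with ratios of -2.60 to -1.21 in t0, -1.84 to -0.92 in HF-AL and 0.61 to 2.73 in HF-DR. G0s2, which inhibits the triglyceride lipase ATGL, was 0.38 and 0.93 above t0. Mid1ip1, an activator of acetyl-CoA carboxylase, was 0.51 and 2.70 above t0, and Angptl8, a secreted partner in the inhibition of lipoprotein lipase, 0.31 and 3.62. These 5 genes also passed without the 7 arrays, though another Angptl8 probe read 0.15 in HF-AL and 3.38 in HF-DR with all arrays. Stard4, a carrier of cholesterol, was 0.37 and 1.36 above t0 and Lpin2, a phosphatidate phosphatase, 0.32 and 0.50, but in HF-AL only 0.15 and 0.01 without the 7 arrays.

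Of the 22 measured genes of lipolysis and the lipid droplet, 2 were higher members and 3 lower members, with list medians of -0.14 and -0.37. Unlike G0s2 and Angptl8, the genes Angptl4, Lpl, Adrb1, Hcar2 and Hcar1 were below t0. Angptl4, a fasting-induced inhibitor of lipoprotein lipase, was 0.39 below t0 in HF-AL (log2 difference -0.39) and 2.97 in HF-DR (-2.97). Its level in HF-AL was -0.25 from t0 without the 7 arrays. Lpl, the lipase that frees fatty acids from circulating lipoproteins, was at -0.31 and -0.54 from t0 (SE 0.15), and at -0.21 and -0.35 without them. Adrb1, a beta-adrenergic receptor, was at -0.43 from t0 in HF-AL and at -0.79 in HF-DR, and kept its place without the 7 arrays. Another Adrb1 probe read only -0.03 and -0.15. Hcar2, the niacin and ketone receptor that lowers lipolysis, had ratios of -0.64, -0.19 and 0.89 in t0, -1.13, -0.90 and 0.09 in HF-AL and -1.91, -0.93 and -0.42 in HF-DR. It was 1.52-fold and 1.79-fold lower than in t0 (-0.61 and -0.84, SE 0.18). Differences within slides rest on the arrays that the rule used and are a description. Hcar2 was lower on all 9 slides with t0 and HF-AL arrays and on all 6 with t0 and HF-DR arrays. Its genomic neighbour Hcar1, the lactate receptor, was at -0.31 and -0.61.

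Of 4 interferon-inducible members among 47 measured genes of that list, 2 kept their place without the 7 arrays. Rsad2, an antiviral enzyme also called viperin (chr12, probe start 27029321), had ratios of -0.95, -0.51 and -0.04 in t0, -0.63, 0.04 and 0.82 in HF-AL and -0.30, 0.78 and 1.12 in HF-DR. It was 1.47-fold and 2.19-fold above t0 (0.56 and 1.13, SE 0.15), with 23 of 24 later arrays above the t0 median. Cmpk2, its neighbour on the chromosome and a mitochondrial nucleotide kinase, was 0.32 and 0.50 above t0 (SE 0.09), with all 24 later arrays above the t0 median, and 0.28 in HF-AL without the 7 arrays. Another Cmpk2 probe read only 0.05 and 0.29. The interferon-induced GTPases Tgtp1, Igtp and Gbp4 were 0.51, 0.44 and 0.39 above t0 in HF-AL and 0.39, 0.62 and 0.34 in HF-DR, with SEs of 0.27 to 0.30 and single arrays up to 2.42. Another Tgtp1 probe read only 0.08 and 0.06. The median over the 47 genes was 0.12 in HF-AL and 0.03 in HF-DR. The 250 bases before the start of 4 of these genes, from RefSeq on GRCm38.p6, are shown because they let the pair on chromosome 12 be set beside 2 GTPases. Capitals mark GAAA and GAAA with 2 bases between them, on either strand, the core of the element bound by interferon-activated factors.
Rsad2 (chr12:26456453-26456702, minus strand): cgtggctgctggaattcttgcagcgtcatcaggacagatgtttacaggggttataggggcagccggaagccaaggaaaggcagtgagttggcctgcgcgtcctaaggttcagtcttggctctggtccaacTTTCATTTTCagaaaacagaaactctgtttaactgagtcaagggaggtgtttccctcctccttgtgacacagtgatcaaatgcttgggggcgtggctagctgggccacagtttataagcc
Cmpk2 (chr12:26468965-26469214, plus strand): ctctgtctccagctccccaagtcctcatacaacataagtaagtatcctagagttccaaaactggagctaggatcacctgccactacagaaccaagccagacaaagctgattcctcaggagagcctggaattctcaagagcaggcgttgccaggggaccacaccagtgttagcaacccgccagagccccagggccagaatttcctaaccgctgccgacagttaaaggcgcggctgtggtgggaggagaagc
Igtp (chr11:58199306-58199555, plus strand): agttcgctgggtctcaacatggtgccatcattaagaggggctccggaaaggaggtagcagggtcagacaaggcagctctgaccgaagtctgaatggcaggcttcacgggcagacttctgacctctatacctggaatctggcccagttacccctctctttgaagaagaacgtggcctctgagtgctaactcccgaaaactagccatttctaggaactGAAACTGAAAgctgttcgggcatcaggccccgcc
Tgtp1 (chr11:48992247-48992496, minus strand): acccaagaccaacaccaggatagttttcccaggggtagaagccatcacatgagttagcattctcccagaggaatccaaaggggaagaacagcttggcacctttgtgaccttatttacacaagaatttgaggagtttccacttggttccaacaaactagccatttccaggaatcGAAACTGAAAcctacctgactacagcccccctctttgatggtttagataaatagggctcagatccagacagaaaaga
The match began 120 bases before the start of Rsad2, 34 before that of Igtp and 77 before that of Tgtp1, and these letters were not found in the Cmpk2 window. Gbp4 had no entry. Of the higher members with a known promoter, 5 of 155 (3.23%) held the motif, of the lower members 1 of 61 (1.64%), and of all genes 936 of 27025 (3.46%), so the members as a whole held it about as often as any gene.

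Of 20 measured clock genes 4 were members, all above t0. Arntl, which encodes the core clock activator BMAL1, had ratios of -0.91, 0.31 and 0.71 in t0, -0.01, 0.50 and 0.82 in HF-AL and 1.01, 1.30 and 1.63 in HF-DR. The t0 arrays were the most widely spread, all HF-DR arrays lay above them, and the differences were 0.35 and 1.17 (SE 0.15). Nfil3, a repressor at D-box elements, was 0.31 and 2.15 above t0. Both passed without the 7 arrays. Usp2, a clock-controlled deubiquitinase, was 0.31 above t0 in HF-AL and 2.09 in HF-DR, but at -0.08 in HF-AL without them. Another Usp2 probe read 0.03 and 0.69 with all arrays. The median over the list was -0.04 in HF-AL and 0.32 in HF-DR.

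Other genes above t0 came from several processes. Homer2, a scaffold protein at signalling complexes (chr7:81484826-81484885), was the only one of all measured genes (0.00606%) for which every later array lay beyond every t0 array. Its ratios were -0.74, -0.55 and -0.24 in t0, -0.23, -0.07 and 0.11 in HF-AL and 0.21, 0.69 and 1.76 in HF-DR, so that the 3 groups did not overlap. The differences were 0.44 and 1.25 (SE 0.10), while another Homer2 probe read 0.01 and 0.48. Nipsnap1, a mitochondrial protein, was 0.54 and 1.09 above t0 (SE 0.12), and Gldc, the decarboxylase of glycine cleavage, 0.39 and 0.52 (SE 0.09). Axin2, a target and feedback inhibitor of Wnt signalling, was 0.57 and 0.82 above t0 (SE 0.15), with HF-DR values between 0.60 and 0.98 and t0 values between -0.56 and 0.45. Hsph1, a heat shock protein of the Hsp110 family, was 0.48 and 0.92 above t0, and Slc35g1, of a solute carrier family, 0.81 and 0.88 (SE 0.20). These 6 genes kept their place without the 7 arrays, though another Slc35g1 probe read only 0.22 and 0.24 with all arrays. Amd2 and Amd1, near-identical copies of the decarboxylase that commits to polyamine synthesis, were 0.43 and 0.41 above t0 in HF-AL and 1.40 and 1.30 in HF-DR, with Amd2 at 0.29 in HF-AL without them. Slc22a18, an imprinted transporter gene, and Cds1, which makes CDP-diacylglycerol, were 0.35 and 0.32 above t0 in HF-AL and 0.78 and 0.79 in HF-DR, and both were under 0.3 in HF-AL without them, at 0.28 and 0.21. Another Slc22a18 probe read 0.03 and 0.47 with all arrays. Sox9, a transcription factor of cartilage and of tract epithelium, was 1.13 and 1.35 above t0 (SE 0.34) with an epithelial correlation of 0.84. It stood at 0.49 and 1.06 without the 7 arrays, and of 2 further probes 1 read 1.00 and 1.08 and the other 0.12 and 0.13.

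Other higher genes lost their place without the 7 arrays. Of the 14 curated genes with the highest smaller difference, Calml3, a calmodulin-like protein of epithelia, ccdc198, Plet1, a marker of epithelial progenitors, Dsp, the desmosomal protein desmoplakin, Wfdc2, a secreted protein of the epididymis, Cldn7, a tight junction claudin, and Mmp7, an epithelial metalloproteinase, were 0.73 to 1.00 above t0 in HF-AL. Their highest HF-AL arrays read 2.67 to 4.23 and their HF-AL medians -3.60 to -0.86. For ccdc198, Plet1, Cldn7 and Mmp7 these medians lay under those of t0. For Calml3 the ratios were -3.85, -3.51 and 1.84 in t0, -4.09, -3.35 and 4.08 in HF-AL and -3.47, -2.31 and 1.07 in HF-DR, and without the 7 arrays HF-AL stood at -0.70 from t0. In HF-AL without them ccdc198, Plet1, Cldn7 and Mmp7 were also below t0, at -0.91, -0.80, -0.43 and -0.52, and Dsp and Wfdc2 were within 0.01 of it. Foxj1, the master regulator of motile cilia, and Dnah9, a dynein chain of cilia, were 0.76 and 0.68 above t0 in HF-AL and at -0.39 and -0.29 without the 7 arrays. Among the markers of other cells, Krt8, Krt18 and Krt19 of mesothelium and epithelium, Hoxb9, Hoxb7 and Wnt6, Erbb3 of Schwann cells and epithelium, Cnn1 of smooth muscle, Lcn2 of neutrophils and epithelium, Wfdc15b of the tract and Ccnd1, which drives cells into the cycle, all lost their place without them. Their epithelial correlations ran from 0.80 to 0.99. Gstm5, a glutathione transferase, was 0.81 and 0.60 above t0, and at -0.03 in HF-AL without the 7 arrays. Cldn15, a claudin of mesothelium, went the other way, at -0.31 and -0.92 from t0 with an epithelial correlation of -0.80, and at -0.18 in HF-AL without them.

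Some genes that lost their place in HF-AL without the 7 arrays stood above t0 in HF-DR with and without them. Grb7, an adaptor of receptor tyrosine kinases, had ratios of -2.42, -1.88 and 0.02 in t0, -2.00, -1.53 and 2.62 in HF-AL and 0.69, 1.42 and 2.10 in HF-DR. All HF-DR arrays lay above all t0 arrays, and HF-AL minus t0 went from 1.06 to 0.15 without the 7 arrays while HF-DR minus t0 stayed at 3.09. It passed 0.3 in both groups again when t0 2 was left out as well. Acot1, an acyl-CoA thioesterase with close paralogues, Aadac, a lipid esterase, Tekt1, a tektin of cilia and flagella, Aldoc, a glycolytic aldolase, and Hoxb6 went from 0.32 to 0.74 in HF-AL down to between -0.48 and 0.10, and stayed 0.93 to 3.35 above t0 in HF-DR. Another Hoxb6 probe did not show this and read 0.08 in HF-AL and 0.01 in HF-DR. Aadac was well above background on 4 t0 arrays, 3 HF-AL arrays and 12 HF-DR arrays, so its differences from t0 are measured against a dim signal. Slc2a5, the fructose transporter GLUT5 (chr4, probe start 148987466), had the largest difference between the later groups. Its ratios were -3.23, -2.81 and -2.37 in t0, -3.31, -2.59 and -0.78 in HF-AL and 1.17, 2.68 and 2.99 in HF-DR, and HF-AL minus t0 was 0.45 with all arrays and 0.10 without the 7. Ccl12 and Ccl8, neighbouring monocyte chemokines, were 0.50 and 0.56 above t0 in HF-AL and 1.85 and 1.44 in HF-DR, and 0.23 and 0.17 in HF-AL without them. Their epithelial correlations were 0.16 and 0.06. The medians were -0.77 in t0 and -0.21 in HF-AL for Ccl12, with 11 of 12 HF-AL arrays above the t0 median, and -1.17 and -0.71 for Ccl8, which passed again without t0 2 as well.

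The genes below t0 were less tied to single arrays. Fam13a, a locus linked to body fat distribution in people (chr6:58863634-58863693), had the largest difference common to both groups among the lower genes. Its ratios were -0.82, 0.03 and 0.68 in t0, -1.67, -0.91 and -0.07 in HF-AL and -1.81, -0.96 and -0.78 in HF-DR. Levels were 1.74-fold and 2.17-fold lower than in t0 (-0.80 and -1.12, SE 0.18), and the 2 further Fam13a probes read -0.71 and -0.70 in HF-AL and -1.02 and -1.35 in HF-DR. Irf4, a transcription factor that promotes lipolysis in fasted adipocytes and also acts in lymphocytes and macrophages (chr13:30774055-30774114), had ratios of -0.53, 0.06 and 1.52 in t0, -0.72, -0.48 and 0.13 in HF-AL and -0.97, -0.53 and -0.30 in HF-DR. It was 1.54-fold and 1.67-fold lower (-0.63 and -0.74, SE 0.15), with 23 of 24 later arrays under the t0 median. Rbp7, a retinol-binding protein of fat, Itm2a, a membrane protein, Chac1, which degrades glutathione, and Tmem86a, a lysoplasmalogenase, were at -0.54, -0.54, -0.62 and -0.41 in HF-AL and at -0.78, -0.68, -0.52 and -0.52 in HF-DR. Fam53b was at -0.32 and -0.58, while another Fam53b probe read -0.09 and -0.04. Synpo, the actin-binding synaptopodin, was at -0.35 and -0.63, while another Synpo probe read -0.40 and 0.14.

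Others of these genes were lower in both later groups with HF-DR far below HF-AL. Cited2, a coregulator that binds CBP and p300 (chr10:17414813-17414872), had ratios of -0.12, 0.25 and 1.14 in t0, -0.93, -0.35 and 0.30 in HF-AL and -1.97, -1.60 and -1.06 in HF-DR. HF-DR lay under all other arrays, and the 3 further probes all read the same way (-0.25 to -0.43 in HF-AL, -0.77 to -1.20 in HF-DR). Txnip, a thioredoxin inhibitor that is induced by glucose (chr3:96646629-96646688), had ratios of -0.11, 0.25 and 0.79 in t0, -0.70, -0.28 and 0.36 in HF-AL and -1.99, -1.61 and -1.36 in HF-DR, and was 1.43-fold and 3.87-fold lower (-0.52 and -1.95, SE 0.10). Its relative Arrdc3, an arrestin-domain protein, was at -0.38 and -1.14. Wfdc21, a small secreted protein, Rasl11b, a Ras-like GTPase, and Mycl, a Myc family member, were at -0.71, -0.70 and -0.51 in HF-AL and at -3.15, -1.95 and -2.65 in HF-DR, and Mycl stood at -0.27 in HF-AL without the 7 arrays. Fam214a was at -0.53 and -1.44, Slc8b1, the sodium-calcium exchanger of mitochondria, at -0.36 and -1.16, and Pfkfb3, a driver of glycolysis, at -0.32 and -2.07. Serpina3n, a secreted protease inhibitor, and Hp, haptoglobin, both acute phase proteins, were at -0.53 and -0.44 in HF-AL and at -0.84 and -2.48 in HF-DR.

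The members on the lists of collagens, of matrix glycoproteins and of the imprinted growth network were all below t0. Of 22 measured collagens 5 were members. Col3a1, the fibrillar collagen III, had ratios of -0.08, 0.61 and 0.98 in t0, 0.05, 0.14 and 0.52 in HF-AL and -2.63, -1.85 and -1.34 in HF-DR (differences -0.32 and -2.41, SE 0.11). Of 2 further Col3a1 probes 1 read -0.23 and -0.82 and the other 0.13 and -0.02. Col5a3, Col5a2, Col4a1 and Col4a2 were at -0.40, -0.34, -0.31 and -0.30 in HF-AL and between -1.90 and -0.73 in HF-DR. Without the 7 arrays Col5a2, Col4a1 and Col4a2 were at -0.26, -0.26 and -0.25 in HF-AL. The list as a whole had a median of -0.14 in HF-AL, with 7 genes above t0, and of -1.33 in HF-DR. Of 52 measured matrix glycoproteins and crosslinkers 6 were members, and the list medians were -0.07 and -0.66. Thbs1 and Thbs2, thrombospondins that bind matrix and growth factors, were at -0.49 and -0.41 in HF-AL and at -3.32 and -1.30 in HF-DR. Postn, periostin, and Bgn, biglycan, were at -0.35 and -0.34 in HF-AL and at -0.74 and -0.62 in HF-DR. When t0 2 was left out with the 7 arrays, Col3a1, Col5a3, Postn and Bgn no longer passed 0.3. Of 16 measured genes of the imprinted network 3 were members, and 6 of the 16 lay above t0 in HF-AL. Mest, whose level follows the expansion of fat mass, had ratios of -1.46, 0.43 and 0.93 in t0, -1.33, -0.29 and 0.96 in HF-AL and -3.05, -2.51 and -0.09 in HF-DR, so that HF-AL lay within the range of t0. Peg3 and Plagl1, imprinted zinc finger proteins, were at -0.40 and -0.42 in HF-AL (SE 0.12 and 0.14) and at -1.74 and -3.08 in HF-DR. The probe A_51_P250217 on chromosome 2, which has no gene name here, was at -0.47 and -3.62.

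Of 35 measured macrophage markers 4 were members, all below t0, namely Lyz2, Lyz1, Clec7a and Lpl. Mmp12, macrophage elastase, which is not on that list, had ratios of -0.07, 0.64 and 0.92 in t0, -0.57, -0.01 and 0.31 in HF-AL and -0.58, -0.38 and 0.17 in HF-DR, with all 24 later arrays under the t0 median. It was well above background on 12 t0 arrays, 9 HF-AL arrays and 1 HF-DR array, so its difference of -0.90 in HF-DR is measured against a dim signal. Lyz2 and Lyz1, lysozymes with near-identical sequences, and Clec7a, the beta-glucan receptor dectin-1, were at -0.31, -0.30 and -0.33 in HF-AL and at -1.68, -1.47 and -0.86 in HF-DR. Rgs1, which quenches chemokine receptor signalling, was at -0.47 and -0.77, and Clec4d, a C-type lectin receptor, at -0.46 and -0.43. The chemokines Ccl5, Ccl6 and Ccl9 were at -0.40, -0.33 and -0.33 in HF-AL and at -0.46, -1.40 and -1.53 in HF-DR. For Ccl5 the medians lay closer, at -0.33 in t0, -0.52 in HF-AL and -0.47 in HF-DR. Its t0 arrays reached up to 1.66, and 17 of the 24 later arrays were under the t0 median. Of 39 measured chemokines and receptors 3 were lower members and 2, Ccl12 and Ccl8, higher ones. Without t0 2 and the 7 arrays Lyz2 and Ccl9 no longer passed. The median of the macrophage list on single arrays ran from -0.18 to 0.47 in t0, from -0.17 to 0.33 in HF-AL and from -1.22 to -0.17 in HF-DR. The t0 and HF-AL ranges overlapped nearly in full. Markers of fibroblasts ran from -0.15 to 0.32 in t0, 0.03 to 0.29 in HF-AL and -1.16 to -0.29 in HF-DR. The part of cell makeup in the lower levels was not tested.

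The later groups differed from each other for 136 of the 309 members at an adjusted p under 0.05, against 64.7% of all genes tested. In all 136 HF-DR was farther from t0, in 70 above it (28.8% of all genes were called higher in HF-DR) and in 66 below it (35.9% were called lower). No excess is read from this count, since the rule sets a floor to both differences. HF-DR exceeded HF-AL for Slc2a5 by 4.89 (adjusted p = 1.5e-19), for Angptl8 by 3.31 (3.4e-25) and for Cidea by 3.26 (2.0e-17). It was lower for the probe A_51_P250217 by 3.14 (difference -3.14, adjusted p = 1.3e-20), for Thbs1 by 2.83 (-2.83, 9.4e-12) and for Plagl1 by 2.66 (-2.66, 3.1e-18). Smaller differences that passed included Homer2 (0.81, adjusted p = 1.1e-08), Nipsnap1 (0.56, 7.3e-05), Rsad2 (0.57, 0.0012), Cited2 (-1.24, 2.3e-09), Txnip (-1.43, 1.0e-14) and Serpina3n (-0.31, 0.026). Mmp12 passed too (-0.31, adjusted p = 0.0088), but with 1 of 12 HF-DR arrays well above background the size of its difference is not well measured. For all 6 red cell genes HF-DR was above HF-AL, by 0.50 to 1.12 (adjusted p from 0.00015 for Slc4a1 to 0.043 for Hbb-bt).

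Without the 7 arrays 127 of the 136 members kept the call (66.8% of all genes were then called). The call ended for Hbb-bt (adjusted p = 0.42), Hba-a1 (0.17), Hba-a2 (0.19) and Serpina3n (0.18). Another 66 members were called then that were not called with all arrays, Sox9 (0.57, adjusted p = 0.0067), Slc35g1 (0.53, 0.00076) and Axin2 (0.44, 0.013) among them. With the slide as a block 99 of the 136 remained called, against 52.7% of all genes. HF-AL 1, 2 and 3 and HF-DR 7, 8, 9, 10, 11 and 12 each lay alone on a slide. These arrays, HF-DR 7, 8 and 9 with tract transcripts among them, had no weight in the group differences of that fit. The call ended in it for all 6 red cell genes (adjusted p from 0.10 to 0.43), for Rsad2 (0.59), Hsph1 (0.072), Arntl (0.24) and Serpina3n (0.31). Some of these differences stayed close to their size without the block, at 0.49 against 0.52 for Hba-a1, 0.44 against 0.50 for Hba-a2 and 0.38 against 0.45 for Hsph1. Others shrank, to 0.19 from 1.12 for Bpgm, to 0.13 from 0.57 for Rsad2 and to 0.26 from 0.82 for Arntl. Whether the slide or the arrays without weight changed these sizes was not tested.

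For 42 members the 95% interval of HF-DR minus HF-AL lay within 0.5 of 0, so a difference of that size was outside it. They were 26 of the higher and 16 of the lower genes. The share of all genes with such an interval is not given, and the rule bounds this difference. Nothing is therefore read from the count of 42. Pnpla3 (-0.01, from -0.41 to 0.40), Slc35g1 (0.07, from -0.34 to 0.47) and Gldc (0.13, from -0.05 to 0.31) were among the higher ones, although Slc35g1 differed without the 7 arrays. Irf4 (-0.11, from -0.41 to 0.18), Tmem86a (-0.12, from -0.31 to 0.08), Itm2a (-0.14, from -0.50 to 0.21), Ccl5 (-0.06, from -0.47 to 0.36) and Clec4d (0.03, from -0.19 to 0.25) were lower genes with intervals that reached at most about 0.5 from 0. The intervals of Fam13a (-0.32, from -0.68 to 0.04) and Hcar2 (-0.23, from -0.59 to 0.13) reached further from 0, though they were not wider than that of Ccl5. That of Igh (0.08) ran from -0.67 to 0.83, so a difference of some size in either direction could not be told from none.

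**Figure D3:**
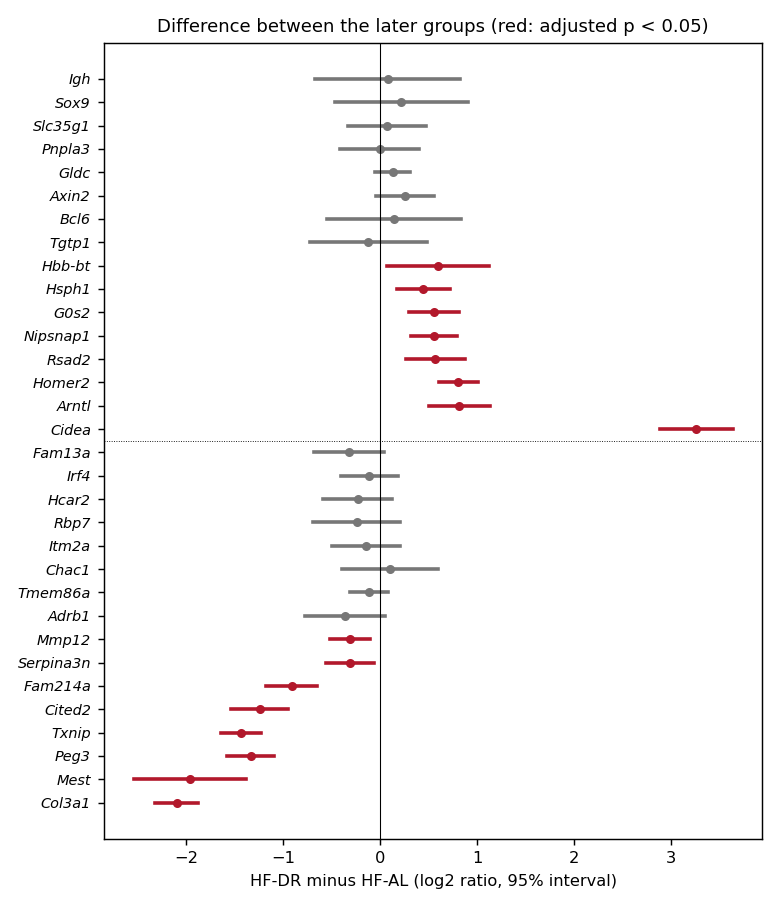
HF-DR minus HF-AL for 32 member genes with the 95% interval from limma over all 36 arrays, 16 above t0 over the dotted line and 16 below t0 under it. Red marks the 16 genes with an adjusted p under 0.05, in each of which HF-DR lay farther from t0. For Mmp12 1 of 12 HF-DR arrays was well above background.

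Arrays of the groups shared 9 slides between t0 and HF-AL and 6 between t0 and HF-DR. On all of these slides 16 higher and 15 lower members kept their sign, Homer2, Mid1ip1, Hsph1, Gldc, Cmpk2, Angptl8 and Slc4a1 above t0 and Fam13a, Hcar2, Slc8b1, Fam214a, Synpo and Cd83 below it. These differences rest on the arrays that the rule used, so they are a description and no separate support. The share of all genes that kept their sign is not given. The fit with the slide as a block gives no weight to arrays alone on a slide. In it Fam13a stood at -0.97 and -0.95 from t0, Igh at 1.80 and 1.64, Cited2 at -0.69 and -2.08 and Rsad2 at 0.71 and 0.85. Igh kept its sign on 8 of 9 slides for HF-AL and on 5 of 6 for HF-DR.

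Of the 48 lists of pathways and cell types 15 held no member, among them fatty acid oxidation, the respiratory chain, MHC and antigen presentation, complement, ribosomal proteins, endothelium and mast cells. The respiratory chain had a median of -0.02 in HF-AL and 0.72 in HF-DR over 42 genes, with all 42 above t0 in HF-DR and 18 in HF-AL. Fatty acid and triglyceride synthesis had a median of 0.03 in HF-AL and 1.90 in HF-DR over 28 genes, of which Pnpla3 and Lpin2 were members. Cholesterol synthesis and uptake had medians of 0.11 and 1.72 over 23 genes, with Stard4 among the members.

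At the threshold the list had no gap. Just inside it were Sorcs2 (0.43 and 0.30) and Slc4a1 (0.31 and 1.09) among the higher genes and Col4a2 (-0.30 and -0.73) and Lyz1 (-0.30 and -1.47) among the lower ones. Just outside were Dpyd (0.30 and 1.55), the transcript AK038195 (0.35 and 0.30), Itgax (-0.30 and -0.99) and Htra3 (-0.30 and -1.04), each with a smaller difference that rounds to 0.30 or -0.30.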

How the data were processed

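Each of the 36 arrays is 1 mouse. Per the labels, 500 ng of RNA of each mouse was labelled in both dyes and the Cy3 products were pooled as the common reference. All arrays had 1 dye orientation. The deposited files hold raw intensity values (mean signal of a spot and median background around it, in both dyes) that the authors obtained with Feature Extraction, version 9.5.3.1 by the headers. Probe coordinates are on mm8, per the file headers. A deposited set of log2 values served as an alternative, and how it was made the sources do not say. It follows the Cy5 level rather than the ratio.

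Background was corrected with normexp (offset 50) in limma 3.58.1 and R 4.3.3 (with the data.table package, 1.17.8), without 84 spots whose net signal was under -50. Ratios were normalised by loess within arrays (4 iterations, control spots at weight 0) and not scaled between arrays. Non-uniform spots and population outliers were dropped and the spots of each probe averaged. A probe needed Cy5 well above background on 9 or more arrays in some group (24706 probes), and the probe with the highest mean intensity stood for its gene. All groups were fitted together with a mean per group. The labels do not say how the replicates were raised, so p-values measure the spread between these mice. Alternatives covered the background correction, normalization, filter, probe choice, slide, replicate number, threshold and arrays left out. The steps were tested on simulated data. The members, the lists and the tests were chosen with earlier results of these data known. Genes named were the 14 higher and 14 lower curated members with the largest smaller difference, 6 more each by that difference over its SE, up to 4 of each list, 2 inside and 2 outside the threshold in each direction and 3 each with the largest difference between the later groups. Further members (the epithelial set, Ighg, Mid1ip1, Cmpk2, Amd1, Bpgm, Slc4a1 beyond its place at the threshold, Foxj1, Dnah9, Arrdc3, Hcar1, Clec4d, Cd83 and Ccl9) were named after their values were seen. A few genes that this rule picks are not reported here. The arrays left out as a set were chosen from their tract transcripts.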

Additional observations from a re-analysis of the deposited data

How the results depend on the processing

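The 309 members (222 higher, 87 lower, 136 of them called between HF-DR and HF-AL) moved most with the processed signals, the threshold and a few arrays. The processed signals of Feature Extraction gave 608 members, 379 higher and 229 lower, with 276 called, and 306 of the 309 were among them. The series matrix gave 148 lower genes, scaling between arrays 133 and the slide as a block 147. At a threshold of 0.5 there were 90 members, 76 higher and 14 lower, with 31 called. Without the 7 arrays with tract transcripts there were 163, 70 of them higher, and without t0 2 as well 165 and 81. Group medians gave 199, 88 of them higher. Leaving out each array in turn gave 227 to 366 members, 144 to 272 higher, 76 to 108 lower and 115 to 160 called, and 6455 to 7328 genes called in the mean of later groups minus t0. In all 36 such fits 157 members passed. The cause of these shifts was not tested, apart from the stricter threshold. Without the 7 arrays the mean of later groups minus t0 turned to -0.066 for Calml3, -0.040 for ccdc198, -0.33 for Plet1, -0.13 for Cldn7, -0.086 for Mmp7, -0.079 for Krt18, -0.039 for Wfdc15b and -0.14 for Erbb3, and without t0 2 as well to -0.018 for Krt18 and -0.069 for Erbb3. Of the other values of named genes under an alternative, 1381 moved by less than 1 SD and 17 by more, and none turned. This count does not cover HF-AL minus t0 alone. That difference turned without the 7 arrays for Aadac (-0.48), Acot1 (-0.15) and Aldoc (-0.07), among others. Aadac was dim in both groups, well above background on 4 t0 arrays and 3 HF-AL arrays. The counts of members, higher genes, lower genes and calls not given here stayed within 1.5 times under normexp with the specks (351 members), Aquantile, no filter, the filter in every group, the mean of probes and the share of probes above background as a covariate. No setting moved the median of all genes by over 0.1.

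Groups share the replicate numbers 1 to 12 in the labels. Same-numbered arrays deviated together by over 0.1 for 2 of 12 pairs of t0 with HF-AL, 0 of t0 with HF-DR and 9 of HF-AL with HF-DR (median correlation 0.21). Since not every pair did, and the labels name nothing that the numbers share, the numbers were not taken to pair the mice. With the replicate block 314 members passed, 308 of them the same, and 137 members were called between HF-DR and HF-AL.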

Other observations

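Members that lie next to each other on a chromosome among the measured genes moved the same way. Of 287 members placed on GRCm38.p6, among 13747 measured genes placed, 15 adjacent pairs were found and all 15 had the same sign. The share of all adjacent measured genes with the same sign is not given, so no excess is read from this. Above t0 these were Rsad2 with Cmpk2, Ccl12 with Ccl8, Hoxb7 with Hoxb6, Krt8 with Krt18, Fbp2 with Fbp1, Apod with Bdh1, Col13a1 with Fam241b and Bex2 with Bex4. Below t0 they were Col3a1 with Col5a2, Col4a1 with Col4a2, Lyz2 with Lyz1, Ccl5 with Ccl9, Ccl9 with Ccl6, Hcar2 with Hcar1 and Mycl with Trit1. Several of these are copies of 1 gene family, whose probes can share signal.

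Of the 309 members 85 had further probes past the filter. For 76 of them every further probe had the same sign in both later groups, and for 24 every further probe also reached 0.3. Not every further probe is given beside its gene above.

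In the 250 bases before the start, the E-box CACGTG was found for 19 of 155 higher members (12.3%), for 7 of 61 lower members (11.5%) and for 1854 of 27025 genes (6.86%), on either strand. The GC box GGGCGG, common in promoters of widely expressed genes, was found for 58.7%, 54.1% and 35.4%. All genes of the promoter table include many that fat does not express, and these shares were not tested.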
